A study of Mus musculus with 15 samples.

Results

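The 9 phospholipase A2 genes Pla2g7, Pla2g12a, Pla2g2f, Pla2g15, Pla2g6, Pla2g4f, Pla2g4a, Pla2g2d and Pla2g16 were followed across every RNA library of a mouse model of chronic lymphocytic leukemia (CLL). They were taken by gene symbol, 9 of the 16470 genes measured in vehicle and 8 of the 16428 measured in ibrutinib. Pla2g2f in ibrutinib was not analysed here. All mice were of the C57Bl/6 strain and carried Eμ-TCL1, a transgene whose Eμ enhancer drives the human TCL1 oncogene in B-cells. Part of them also carried 1 mutant allele of the tumor suppressor p53 (Eμ-TCL1;p53R172H/+), a germline change that is present in all cells of the mouse and not only in B-cells. Leukemic spleens were disrupted mechanically, and the cells were cultured for 24 h with DMSO, the vehicle, or with 5 μM ibrutinib, an inhibitor of Bruton's tyrosine kinase (BTK). The 15 libraries comprised 3 of Eμ-TCL1 and 5 of Eμ-TCL1;p53R172H/+ cells in DMSO, and 3 of Eμ-TCL1 and 4 of Eμ-TCL1;p53R172H/+ cells in ibrutinib. The labels do not give the age of these mice or say that each library came from a separate mouse, so p-values measure the spread between these samples, which may in part be technical.

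Phospholipases A2 cut the fatty acid from the middle carbon of the glycerol backbone of a phospholipid. The products are a lysophospholipid and a free fatty acid, which can be arachidonic acid, the precursor of prostaglandins and leukotrienes. The family holds small secreted enzymes that need calcium, cytosolic enzymes that move to membranes when calcium rises, calcium-independent enzymes, hydrolases of platelet-activating factor (PAF), and lysosomal and adipose forms. In the spleen several of these enzymes are known from macrophages and other myeloid cells as well as from lymphocytes.

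Values are read counts scaled to the size of the library and normalized by the authors (normalized CPM), rounded to 0.1, with scaling factors set separately for the DMSO and the ibrutinib table. The median gene had a normalized CPM of 11.8 to 12.9 in the DMSO libraries and of 8.9 to 10.9 in the ibrutinib libraries. The tables are therefore set side by side below, and no test was made between treatments within a genotype.

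The libraries differed in the cells they held, and these differences moved with several phospholipase A2 genes. The summed normalized CPM of 19 macrophage and monocyte markers was 11592.6 in Eμ-TCL1 DMSO replicate 2 and 8478.5 in Eμ-TCL1 ibrutinib replicate 1, against 230.4 to 1484.5 in the other 13 libraries. The 1484.5 was that of Eμ-TCL1;p53R172H/+ DMSO replicate 2, where Ccr2 (473) and Ly6c2 (944.2), which T-cells can also express, made up most of the sum, while Lyz2 was at 13.3 and Csf1r at 2.6. In those first 2 libraries 0 of the 19 markers were listed at 0, the 10 neutrophil markers summed to 30210.7 and 23949.1, and the 7 erythroid markers found to 4725.4 and 4762. After the mean of each group was taken off, the 2 libraries deviated alike across genes, with a Pearson r of 0.89. The labels do not say whether they came from 1 mouse, so they cannot be counted as independent of each other. The 13 B-cell markers summed to 126.6 to 636.5 in 5 libraries, namely these 2, Eμ-TCL1;p53R172H/+ DMSO replicates 1 and 2, and Eμ-TCL1;p53R172H/+ ibrutinib replicate 1. The other 10 libraries had B-cell sums of 647.8 to 6677.3. The 647.8 was that of Eμ-TCL1;p53R172H/+ ibrutinib replicate 3, close to 636.5, so no gap in the B-cell sum sets the 5 libraries apart. The 14 T-cell markers were highest, at 2575.7 to 4497, in the last 3 of the 5 libraries named. Eμ-TCL1;p53R172H/+ ibrutinib replicate 3 followed at 1764.2. In bulk RNA, fewer cells of a type and less RNA per cell cannot be told apart.

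Pla2g7, Pla2g4a and Pla2g15 shared a single pattern, with their highest values in the 2 libraries rich in Lyz2, the lysozyme gene of macrophages and other myeloid cells. Lyz2 was at 7931.4 and 5895.8 normalized CPM in those libraries and at 5.8 to 224.1 in the other 13. The other 6 of the 9 members did not have their highest value there, apart from Pla2g4f in DMSO. Pla2g4c, a phospholipase A2 outside the 9, did. The part of the myeloid transcripts in the differences between genotypes was not tested.

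Pla2g7 (ENSMUSG00000023913, GRCm38 chr17:43568098-43612201, plus strand) encodes the secreted PAF acetylhydrolase, which inactivates PAF and is made by macrophages. In DMSO it was at 112.9, 1.5 and 4.3 normalized CPM in Eμ-TCL1 replicates 2, 3 and 4. In Eμ-TCL1;p53R172H/+ replicates 1 to 5 it was at 1.4, 1.3, 5.1, 1.5 and 4.6. Only Eμ-TCL1 replicate 2 stood above the other genotype, and its other 2 values lay within the range of the Eμ-TCL1;p53R172H/+ libraries. In ibrutinib, Pla2g7 was at 77.2, 8.2 and 2.9 in Eμ-TCL1 replicates 1, 3 and 4. In Eμ-TCL1;p53R172H/+ replicates 1, 3, 4 and 5 it was at 0.4, 10.4, 12.9 and 15.4. The genotypes overlapped again, and without Eμ-TCL1 replicate 1 most Eμ-TCL1;p53R172H/+ values were the higher ones. Its exons overlap those of 1700071M16Rik on the opposite strand by 319 bases, and since strand-specific counting is not given in the sources used here, reads there cannot be told apart.

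By limma's moderated test, with Benjamini-Hochberg adjustment over all genes, the log2 difference of Pla2g7 between Eμ-TCL1;p53R172H/+ and Eμ-TCL1 was -1.74 ± 1.12 (SE) in DMSO (adjusted p = 0.645). In ibrutinib it was -0.86 ± 1.22 (adjusted p = 0.764). Without Eμ-TCL1 DMSO replicate 2 the first difference was -0.09, and without Eμ-TCL1 ibrutinib replicate 1 the second turned to 0.37. These log2 differences are on the scale of log2(normalized CPM + 1), as are all those below, and understate the change of genes with low values.

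Pla2g7 followed Lyz2 from library to library. After each group's mean was taken off the log2 values, Lyz2 was the gene most like Pla2g7 among 13374 other genes, with a Pearson r of 0.99 over 15 libraries. Csf1r, the receptor for the macrophage growth factor CSF-1, came next, with an r of 0.98. Without the library with the highest Lyz2, Lyz2 was still first, with an r of 0.99 over 14 libraries. The genes share their libraries and the 2 libraries rich in Lyz2 carry much of the spread, so these values are a description. As a percentage of Lyz2, Pla2g7 was 1.42 and 1.31 in the 2 libraries rich in Lyz2 and 4.39 to 12.3 in the other 13. Relative to Lyz2 it was thus lowest where Lyz2 was highest.

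Pla2g4a (ENSMUSG00000056220, chr1:149829618-149961290, minus strand) encodes the cytosolic phospholipase A2 alpha, the enzyme best known for the release of arachidonic acid in activated myeloid cells. In DMSO it was at 46.2, 0.2 and 0.5 normalized CPM in Eμ-TCL1 replicates 2, 3 and 4. In the Eμ-TCL1;p53R172H/+ libraries it was at 0.3, 0.1, 1.3, 0.3 and 0.3. In 7 of the 8 DMSO libraries the gene was thus at 0.1 to 1.3, not far above the rounding step of the values. With ibrutinib, Pla2g4a was at 36.1, 1.7 and 1.1 in Eμ-TCL1 and at 0.3, 3.9, 4.5 and 1.5 in Eμ-TCL1;p53R172H/+ libraries. The log2 difference between the genotypes was -1.64 ± 1.09 in DMSO (limma, adjusted p = 0.645) and -0.96 ± 1.05 in ibrutinib (adjusted p = 0.693). Without the library richest in Lyz2 of each table, the differences turned to 0.07 and 0.36. The genes most like Pla2g4a over the 15 libraries were Tlr13, Zfp704 and Pparg, each with an r of 0.99.

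Pla2g15 (ENSMUSG00000031903, chr8:106150399-106164715, plus strand) encodes the lysosomal phospholipase A2, which is abundant in macrophages and degrades phospholipids taken up into lysosomes. It was the member with the clearest separation of the genotypes. In DMSO it was at 46.0, 7.3 and 9.7 normalized CPM in Eμ-TCL1 replicates 2, 3 and 4. In Eμ-TCL1;p53R172H/+ replicates 1 to 5 it was at 6.2, 5.2, 6.1, 5.6 and 8.0. The genotypes overlapped through Eμ-TCL1;p53R172H/+ replicate 5 and Eμ-TCL1 replicate 3 alone. In ibrutinib, Pla2g15 was at 39.5, 14.8 and 13.5 in Eμ-TCL1 replicates 1, 3 and 4. In Eμ-TCL1;p53R172H/+ replicates 1, 3, 4 and 5 it was at 4.7, 9.2, 11.1 and 8.6. Each of the 3 Eμ-TCL1 values lay above each of the 4 Eμ-TCL1;p53R172H/+ values.

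The log2 difference of Pla2g15 in ibrutinib was -1.21 ± 0.43 (95% confidence interval -2.22 to -0.20). Its p-value in limma was 0.0248 before and 0.349 after adjustment over all genes, so it did not pass the test. In DMSO the difference was -1.17 ± 0.54 (interval -2.40 to 0.06, adjusted p = 0.623). Leaving out the library richest in Lyz2 brought the difference to -0.40 in DMSO (adjusted p = 0.763) and to -0.74 in ibrutinib (adjusted p = 0.346). Over all 15 alternative fits in ibrutinib the adjusted p ranged from 0.273 to 0.661. The genes most like Pla2g15 were Fzd7, AF251705 and Tnfaip2, with r from 0.97 to 0.98.

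The 3 genes of this pattern also went together, with a Pearson r of 0.95 between Pla2g15 and Pla2g7, 0.96 between Pla2g4a and Pla2g15, and 0.93 between Pla2g4a and Pla2g7 over the 15 libraries. Pla2g15 had the flattest course, since it was at 4.7 to 14.8 normalized CPM in the 13 libraries with less Lyz2, while Pla2g4a was at 0.1 to 4.5 and Pla2g7 at 0.4 to 15.4 there.

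**Figure D1:**
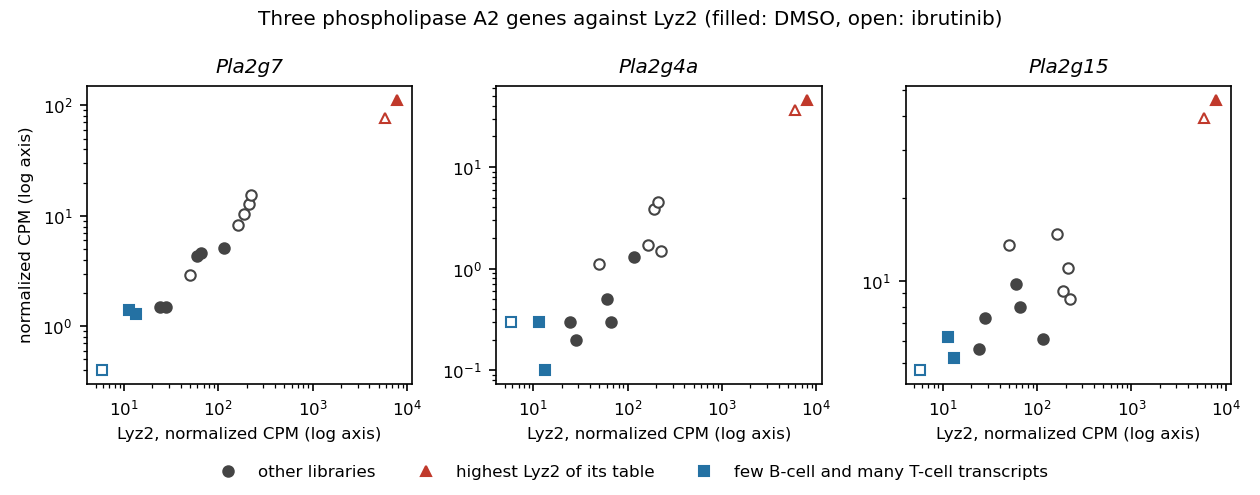
Normalized CPM of Pla2g7, Pla2g4a and Pla2g15 against that of Lyz2 in each of the 15 libraries, both axes logarithmic, with filled symbols for DMSO and open symbols for ibrutinib. Red triangles mark the library with the highest Lyz2 of each table and blue squares the 3 libraries with few B-cell and many T-cell transcripts. The 2 triangles hold the highest value of each gene, and the remaining points of Pla2g7 climb with Lyz2 from 0.4 to 15.4.

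The sequences before the RefSeq starts of these genes are shown because the 3 genes moved together. Pla2g15 and Pla2g7 are alike in their count of CG dinucleotides, and Pla2g4a has fewer. They are from RefSeq (GRCm38.p6), all 9 members were matched there, Pla2g16 as Plaat3, and capitals mark each CG. The 250 bases before the start of Pla2g15 (chr8:106150104-106150353, plus strand) hold 16 CG.
Pla2g15: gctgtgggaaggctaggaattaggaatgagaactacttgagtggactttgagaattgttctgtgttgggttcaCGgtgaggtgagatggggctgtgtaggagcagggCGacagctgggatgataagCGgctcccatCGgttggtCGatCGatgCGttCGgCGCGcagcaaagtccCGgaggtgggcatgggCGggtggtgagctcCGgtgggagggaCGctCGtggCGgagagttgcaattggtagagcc
The 250 bases before the first of the 2 starts of Pla2g4a (chr1:149961291-149961540, minus strand) hold 3 CG.
Pla2g4a: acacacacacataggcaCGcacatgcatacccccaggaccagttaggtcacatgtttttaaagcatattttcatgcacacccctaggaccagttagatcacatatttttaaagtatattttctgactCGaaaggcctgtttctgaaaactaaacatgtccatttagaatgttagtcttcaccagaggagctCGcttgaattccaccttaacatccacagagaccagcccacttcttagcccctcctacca
For Pla2g7, 182 of the 250 bases fall in annotated exons, and the remaining 68 (chr17:43568201-43568268, plus strand) are shown.
Pla2g7: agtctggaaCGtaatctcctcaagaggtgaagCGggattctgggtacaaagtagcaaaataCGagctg
Its whole window of 250 bases holds 14 CG and lies within the span given above for the gene, which starts at 43568098. A CG is its own reverse complement, so both strands have the same count. Over the 32851 upstream windows of this length the median was 6 CG, with quartiles of 2 and 16, and 92.1% held at least 1. The counts in the other members were 12 in Pla2g6, 7 in Pla2g16, 4 in Pla2g12a, 2 in each of Pla2g2d and Pla2g2f, and 1 in Pla2g4f, with the first start taken where there are 2. The window of Pla2g12a (chr3:129880934-129881183) also lies within the span of its gene, which starts at 129878606. For Pla2g7 and Pla2g12a the windows are thus not upstream of the whole annotated gene. These counts are a description of the sequences and not of their methylation.

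The calcium-independent enzyme Pla2g6 (ENSMUSG00000042632, chr15:79286228-79328390, minus strand) was lowest in the libraries with few B-cell transcripts. In DMSO it was at 10, 24.7 and 36.4 normalized CPM in Eμ-TCL1 replicates 2, 3 and 4, and at 14.4, 12.6, 21.0, 29.0 and 31.5 in Eμ-TCL1;p53R172H/+ replicates 1 to 5. The ibrutinib libraries had 11.6, 52.5 and 46.3 in Eμ-TCL1 replicates 1, 3 and 4, and 14.6, 21.2, 29.2 and 19.4 in Eμ-TCL1;p53R172H/+ replicates 1, 3, 4 and 5. The 5 libraries with the lowest B-cell sums had the 5 lowest values of Pla2g6, from 10 to 14.6, and the other 10 libraries lay between 19.4 and 52.5. The next library by B-cell sum, Eμ-TCL1;p53R172H/+ ibrutinib replicate 3 at 647.8, had 21.2 although its sum was close to the fifth, 636.5.

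The log2 difference of Pla2g6 between the genotypes was not larger than the spread between libraries, at -0.04 ± 0.46 in DMSO (limma, adjusted p = 0.984, and -0.53 without the library rich in Lyz2) and -0.56 ± 0.52 in ibrutinib (adjusted p = 0.643). Without Eμ-TCL1 ibrutinib replicate 1, the library rich in Lyz2, both remaining Eμ-TCL1 values lay above all 4 Eμ-TCL1;p53R172H/+ values. The difference was then -1.23 (adjusted p = 0.151). With so few Eμ-TCL1 libraries such a lack of overlap comes easily, and its share over all genes in this fit is not given here. Smco4, Phyhd1 and Gm16025 were most like Pla2g6, with r from 0.96 to 0.98.

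Pla2g2d (ENSMUSG00000041202, chr4:138775735-138782046, plus strand), a secreted enzyme known from the dendritic cells and macrophages of lymphoid tissue, was listed at 0 in the same 5 libraries with the lowest B-cell sums and above 0 in the other 10. In DMSO it was at 0.0, 0.3 and 0.6 normalized CPM in Eμ-TCL1 replicates 2, 3 and 4. In Eμ-TCL1;p53R172H/+ replicates 1 to 5 it was at 0.0, 0.0, 5.5, 0.3 and 4.6. With ibrutinib, Pla2g2d was at 0.0, 10.6 and 1.5 in Eμ-TCL1 and at 0.0, 4.2, 5.2 and 5.0 in Eμ-TCL1;p53R172H/+ libraries. The highest values thus occurred in both genotypes, and among the 10 libraries above 0 they did not follow the B-cell sum, since the library with the highest sum (6677.3) had a value of 0.3. The library with the lowest sum of these 10, Eμ-TCL1;p53R172H/+ ibrutinib replicate 3 at 647.8, had 4.2. Its sum was close to the 636.5 of a library listed at 0. The log2 difference was 0.76 ± 0.71 in DMSO (limma, adjusted p = 0.716) and 0.28 ± 0.96 in ibrutinib (adjusted p = 0.914). Without the library rich in Lyz2 of each table it was 0.58 and -0.53. The 12 dendritic cell markers in DMSO, of which 11 were found in ibrutinib, summed to 80.1 in Eμ-TCL1;p53R172H/+ DMSO replicate 5, with 4.6 of Pla2g2d. They summed to 391.6 in DMSO replicate 1 of that genotype, with 0.0 of Pla2g2d and many T-cell transcripts. The markers of this list did not go together. In replicates 5 and 1 Itgax was at 2.2 and 21.9, Flt3 at 3.4 and 2.1, and Zbtb46 at 3.3 and 1.7. A dendritic cell source of Pla2g2d was not tested.

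Pla2g2f (ENSMUSG00000028749, chr4:138750533-138757626, minus strand), a secreted enzyme known from the epidermis, lies next to Pla2g2d on chromosome 4 and was above 0 in 2 of the 8 DMSO libraries. It was at 1.3 and 1.2 normalized CPM in Eμ-TCL1;p53R172H/+ DMSO replicates 3 and 5 and listed at 0 in the other 6 DMSO libraries. These were the 2 DMSO libraries with the highest Pla2g2d. The log2 difference of Pla2g2f was 0.47 ± 0.35 (limma, adjusted p = 0.658). Since the gene was listed at 0 in each Eμ-TCL1 DMSO library, this difference could not be negative. It could pass the authors' filter of 0.5 CPM only through Eμ-TCL1;p53R172H/+ replicates 3 and 5, so the difference is a description.

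Pla2g12a (ENSMUSG00000027999, chr3:129878606-129895825, plus strand) encodes a secreted enzyme of wide tissue distribution and had no library far from the rest. The DMSO values were 4.3, 9.9 and 8.0 normalized CPM in Eμ-TCL1 and 5.3, 3.8, 7.5, 10.8 and 8.5 in Eμ-TCL1;p53R172H/+ libraries. In ibrutinib it was at 4.1, 6.1 and 5.3 in Eμ-TCL1 and at 3.8, 2.9, 6.0 and 4.8 in Eμ-TCL1;p53R172H/+ libraries. The group means were 7.40 ± 2.85 (SD, n = 3) and 7.18 ± 2.73 (n = 5) in DMSO, and 5.17 ± 1.01 (n = 3) and 4.38 ± 1.33 (n = 4) in ibrutinib. The genotypes overlapped throughout, with log2 differences of -0.04 (95% confidence interval -0.94 to 0.85) in DMSO and -0.22 (-0.87 to 0.43) in ibrutinib. Without the library rich in Lyz2 they were -0.35 in both tables. Pla2g12a and Pla2g6 had an r of 0.74 with each other over the 15 libraries.

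Pla2g16 (ENSMUSG00000060675, chr19:7557459-7588545, plus strand), the adipose phospholipase A2, which also acts as an acyltransferase, was highest in the 3 libraries with the highest T-cell sums. The DMSO libraries had 75.2 and 61.5 normalized CPM in Eμ-TCL1;p53R172H/+ replicates 1 and 2, and 16.7, 8.4 and 16.0 in replicates 3, 4 and 5. In Eμ-TCL1 DMSO replicates 2, 3 and 4 it was at 19.5, 48.4 and 41.4. The ibrutinib values were 55.7 in Eμ-TCL1;p53R172H/+ replicate 1, 26.3, 18.4 and 21.0 in replicates 3, 4 and 5, and 15.1, 38.5 and 36.3 in Eμ-TCL1 replicates 1, 3 and 4. The 3 highest of the 15 values were thus those of the 3 libraries with the highest T-cell sums. The T-cell sum did not order the rest, since Eμ-TCL1 DMSO replicate 3 had the highest value of the other 12, 48.4, with a T-cell sum of 301.9, among the lowest. Cd3e, a defining T-cell gene, was at 2.8 in that library. The next T-cell sum, 1764.2 in Eμ-TCL1;p53R172H/+ ibrutinib replicate 3, came with only 26.3 of Pla2g16. That value lay below the 38.5 and 36.3 of Eμ-TCL1 ibrutinib replicates 3 and 4. Cd3e was at 96 in Eμ-TCL1;p53R172H/+ ibrutinib replicate 3 and at 82 in replicate 1. The 3 libraries with the highest T-cell sums also had the highest sums of 8 NK-cell markers, 334 to 788.2 against 13.6 to 102.2 in the other 12. Unlike the T-cell sum, its marker Cd4 was not highest there, at 2.0, 4.4 and 1.5 against up to 43.7 elsewhere. The cell type that holds Pla2g16 was not tested.

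The log2 difference of Pla2g16 was -0.39 ± 0.72 in DMSO (limma, adjusted p = 0.857) and -0.01 ± 0.46 in ibrutinib (adjusted p = 0.992). Without the library rich in Lyz2 it was -0.78 and -0.43. When the libraries with few B-cell and many T-cell transcripts (Eμ-TCL1;p53R172H/+ DMSO replicates 1 and 2, and ibrutinib replicate 1) were left out, the genotypes no longer overlapped in DMSO. The 3 Eμ-TCL1 values, 19.5 to 48.4, then lay above the other 3 Eμ-TCL1;p53R172H/+ values, 8.4 to 16.7, and the difference was -1.31 (adjusted p = 0.373). In ibrutinib it was -0.34 (adjusted p = 0.777). A lack of overlap comes more easily with fewer libraries, and its share over all genes without these libraries is not given here. Idnk, Ddb2 and Tmc8 were most like Pla2g16, each with an r of 0.98.

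**Figure D2:**
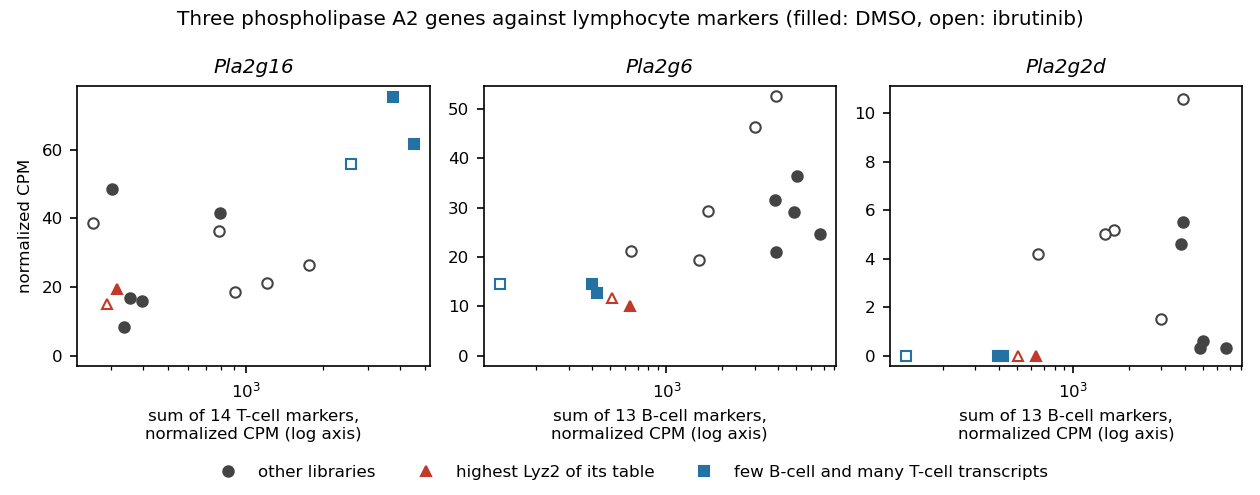
Normalized CPM of Pla2g16 against the summed normalized CPM of 14 T-cell markers, and of Pla2g6 and Pla2g2d against that of 13 B-cell markers, in each of the 15 libraries, with logarithmic horizontal axes, filled symbols for DMSO and open symbols for ibrutinib. The 3 libraries with few B-cell and many T-cell transcripts (blue squares) hold the highest values of Pla2g16, from 55.7 to 75.2. They and the 2 libraries rich in Lyz2 (red triangles) lie at 10 to 14.6 for Pla2g6 and at 0 for Pla2g2d.

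Pla2g4f (ENSMUSG00000046971, chr2:120299957-120314165, minus strand), a cytosolic enzyme related to Pla2g4a, was close to the lower limit of the tables in all libraries. It was at 0.3 to 1.5 normalized CPM in Eμ-TCL1 and at 0.5 to 0.8 in Eμ-TCL1;p53R172H/+ DMSO libraries, and at 0.4 to 0.8 and 0.3 to 1.0 in ibrutinib. Its highest value, 1.5, was in Eμ-TCL1 DMSO replicate 2. The log2 differences were -0.07 ± 0.24 in DMSO and 0.04 ± 0.20 in ibrutinib (limma, adjusted p = 0.931 and 0.936). Without the library rich in Lyz2 they were 0.21 and 0.15.

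**Figure D3:**
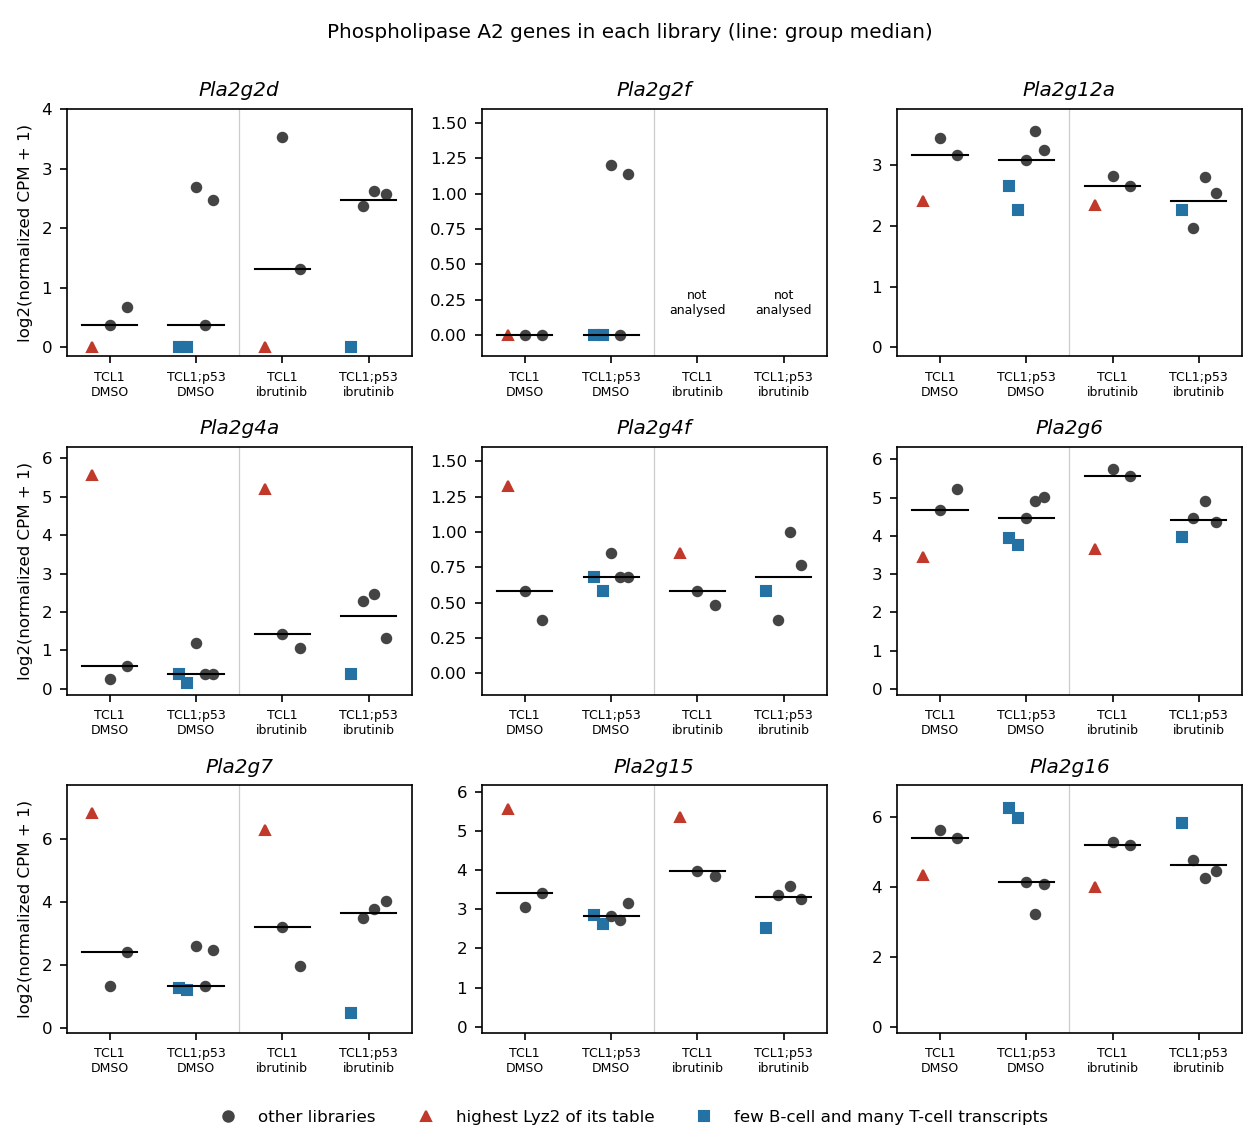
Log2(normalized CPM + 1) of the 9 phospholipase A2 genes in each library of the 4 groups, with TCL1;p53 for Eμ-TCL1;p53R172H/+, each panel on its own scale and a line at the group median. Pla2g4a, Pla2g7 and Pla2g15 are highest in the 2 libraries with the highest Lyz2 (red triangles), Pla2g16 in the 3 libraries with few B-cell and many T-cell transcripts (blue squares), and Pla2g15 is the gene whose genotypes do not overlap in ibrutinib.

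The levels of the members were compared with each other per kilobase of exon (normalized CPM per kb, exon lengths from GENCODE M21). In the Eμ-TCL1;p53R172H/+ DMSO libraries, Pla2g16 was highest at 5.56 ± 4.77 (SD, n = 5), followed by Pla2g6 at 3.99 ± 1.56, Pla2g15 at 2.06 ± 0.36 and Pla2g12a at 1.95 ± 0.74. Pla2g7 followed at 0.957 ± 0.654. Pla2g4f (0.194 ± 0.034) and Pla2g4a (0.0720 ± 0.0747) were lowest among the members read in all 8 DMSO libraries. Neighbors in this order were within 1 SD of each other for Pla2g16 and Pla2g6 and for Pla2g15 and Pla2g12a. The first place of Pla2g16 rested on replicates 1 and 2, at 75.2 and 61.5 normalized CPM. In replicates 3, 4 and 5 it was at 16.7, 8.4 and 16.0, below Pla2g6 at 21.0, 29.0 and 31.5, although Pla2g6 has the shorter exons. Pla2g2d, listed at 0 in part of these libraries, was at 0.927 ± 1.22 per kb. In the Eμ-TCL1 DMSO libraries the order began with Pla2g7 at 13.6 ± 21.9 (n = 3) and Pla2g15 at 6.97 ± 7.20. Replicate 2 held the highest value of both, and Pla2g16 (5.70 ± 2.36) and Pla2g6 (4.36 ± 2.43) lay within their spread. In ibrutinib, Pla2g16 and Pla2g6 were at 4.75 ± 2.69 and 3.88 ± 1.12 in Eμ-TCL1;p53R172H/+ (n = 4), above Pla2g7 at 3.36 ± 2.26 and Pla2g15 at 2.79 ± 0.89. In the Eμ-TCL1 ibrutinib libraries (n = 3) the order was Pla2g7 at 10.1 ± 14.3, Pla2g15 at 7.50 ± 4.86, Pla2g6 at 6.77 ± 4.06 and Pla2g16 at 4.69 ± 2.02, each within the spread of the next.

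The question put to the whole family was whether its genes differ between the genotypes, in vehicle and in ibrutinib. None of the members passed the test (limma, adjusted p under 0.05), 0 of 9 in DMSO and 0 of 8 in ibrutinib, against 0.0121% of all genes in DMSO and 0% in ibrutinib. Before adjustment, 0 of 9 members had a p under 0.05 in DMSO, where 8.17% of all genes did, and 1 of 8 in ibrutinib, Pla2g15, where 12% did. The genotypes did not overlap for 0 of 9 members in DMSO, against 6.45% of all genes, and for 1 of 8 in ibrutinib, Pla2g15, against 12.7% of all genes, of which 5.97% were lower, as Pla2g15 was, and 6.68% higher in Eμ-TCL1;p53R172H/+. A single gene of 8 is near these shares. The differences were negative, lower in Eμ-TCL1;p53R172H/+, for 7 of 9 members in DMSO and 6 of 8 in ibrutinib. In DMSO that of Pla2g2f could not be negative, since the gene was listed at 0 in each Eμ-TCL1 library. The median log2 difference was -0.07 for the members and 0.04 for all genes in DMSO, and -0.39 and -0.05 in ibrutinib.

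The difference between the genotypes was also compared between the treatments, for the 8 members in both tables. The fit treated all 15 libraries as unrelated, although for 5 of the 6 numbers that a genotype has in both tables the same-numbered libraries deviated alike (r of 0.71 to 0.84, and -0.10 for Eμ-TCL1;p53R172H/+ replicate 3). The interaction was positive for 4 and negative for 4 of them, with a median of 0.03 for the members and -0.07 for all genes on the log2 scale. It passed the test for 0 of 8 members and for 0% of all genes, and before adjustment for 0 of 8 members and 0.523% of all genes. Where libraries deviate alike across treatments, such a fit overstates the standard errors. The lack of calls therefore says little about whether an interaction exists. The largest values were 0.88 ± 1.78 (SE) for Pla2g7, 0.68 ± 1.64 for Pla2g4a and -0.52 ± 0.73 for Pla2g6 (limma, adjusted p = 1 for each). For Pla2g15 it was -0.04 (95% confidence interval -1.61 to 1.52). Without Eμ-TCL1 DMSO replicate 2 the interaction turned to -0.77 for Pla2g7 and to -1.03 for Pla2g4a.

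**Figure D4:**
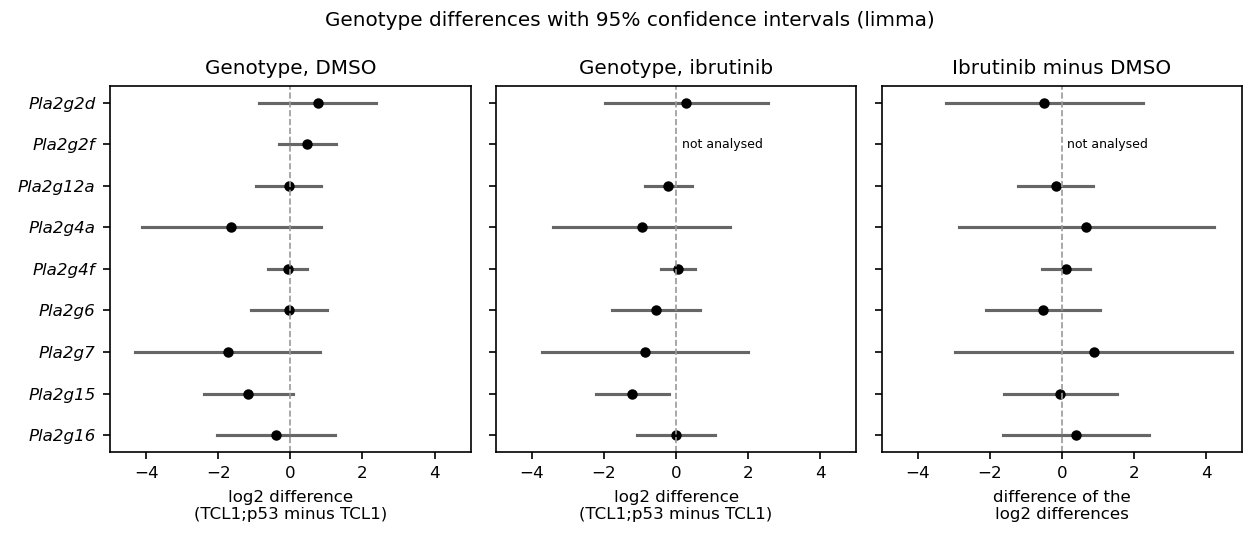
Log2 difference of each phospholipase A2 gene between Eμ-TCL1;p53R172H/+ and Eμ-TCL1 libraries in DMSO and in ibrutinib, and the difference between these differences, with 95% confidence intervals from limma before adjustment. Each interval includes 0 apart from that of Pla2g15 in ibrutinib, at -2.22 to -0.20, and the intervals of Pla2g7 and Pla2g4a are the widest.

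The treatments are set side by side without a test. In Eμ-TCL1;p53R172H/+ cells Pla2g7 was at 1.3 to 5.1 normalized CPM in DMSO and at 0.4 to 15.4 in ibrutinib, where 3 of 4 libraries were above 10. Lyz2 was at 11.4 to 116.1 and at 5.8 to 224.1 in the same libraries, so Pla2g7 and Lyz2 moved together here too. Pla2g15 was at 5.2 to 8.0 in DMSO and at 4.7 to 11.1 in ibrutinib. Pla2g4a was at 0.1 to 1.3 and at 0.3 to 4.5, and Pla2g12a at 3.8 to 10.8 and 2.9 to 6.0. The part of cell content and of the separate scaling in these differences was not tested.

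The text of the study names a qPCR assay for PLA2G, a symbol that stands for a family, and its supplementary methods list primers under the spelling PLGA2, taken here as the same assay. These primers were matched to all 141767 mouse transcripts of the annotation and had an exact match in 1 gene, Pla2g3, a secreted phospholipase A2 that is not among the 9 members.
forward: agagaccacagggccattaag
reverse: gctgtagaatgacatggtgct
The forward primer lies at chr11:3492977-3492997 and the reverse primer at chr11:3493097-3493117 (GRCm38), both in the coding part of exon 7 of 7, with an amplicon of 141 bases. Pla2g3 was low in the ibrutinib libraries, at 0.6, 0.8 and 0.3 normalized CPM in Eμ-TCL1 replicates 1, 3 and 4 and at 0.7, 1.0, 1.0 and 0.8 in Eμ-TCL1;p53R172H/+ replicates 1, 3, 4 and 5. The genotypes overlapped (log2 difference 0.27 ± 0.18, limma, adjusted p = 0.564). The exons of Pla2g3 overlap in part those of Inpp5j on the opposite strand. As for Pla2g7, reads there cannot be told apart, so these low values may include reads of Inpp5j. The study used its assay for another comparison, ibrutinib against vehicle in Eμ-TCL1;p53R172H/+ mice treated for 5 days, and reported a significant rise. The genotype difference given here, after 24 h in culture, does not bear on that result. Pla2g3 in DMSO was not analysed here.

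The wider pathway was followed through 104 listed genes of phospholipid cutting, eicosanoid synthesis and reception, and phospholipid repair, the members included. Of these, 78 were found in each table. In DMSO 0 of 78 passed the test, and at an unadjusted p under 0.05 there were 3 with a positive and 5 with a negative difference, against 3.52% and 4.65% of all genes. In ibrutinib 0 of 78 passed, with 2 positive and 5 negative at that p, against 5.69% and 6.32%. For the interaction the counts were 0 of 76 at either threshold.

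The 3 genes with the lowest p in each test were named. Lpcat1, which reacylates lysophosphatidylcholine and so works against phospholipase A2, separated the genotypes in both tables. It was at 68.8, 55.7 and 69.8 normalized CPM in Eμ-TCL1 and at 26.5, 23.0, 35.1, 34.2 and 40.7 in Eμ-TCL1;p53R172H/+ libraries in DMSO. In ibrutinib it was at 56.9, 58.4 and 56.4 in Eμ-TCL1 and at 17.3, 21.0, 24.8 and 28.9 in Eμ-TCL1;p53R172H/+ libraries. The log2 difference was -1.02 ± 0.23 in DMSO and -1.30 ± 0.20 in ibrutinib, but neither passed the test (limma, adjusted p = 0.326 and 0.165).

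Gpr34, a receptor for lysophosphatidylserine, was at 4.6, 6.9 and 34.3 in Eμ-TCL1 and at 0.1 to 0.6 in Eμ-TCL1;p53R172H/+ DMSO libraries, without overlap. Its log2 difference of -3.17 ± 0.55 did not pass the test either (limma, adjusted p = 0.196). In ibrutinib its genotypes overlapped through Eμ-TCL1;p53R172H/+ replicate 3, at 2.1. Ptges, a prostaglandin E synthase, was at 8.8, 0.6 and 0.8 in Eμ-TCL1 and at 0.0 to 0.1 in Eμ-TCL1;p53R172H/+ DMSO libraries (adjusted p = 0.545). The 8.8 was that of Eμ-TCL1 replicate 2, rich in Lyz2, and the other values were not far above the rounding step or at 0. In ibrutinib Ptges was again highest in the library rich in Lyz2, Eμ-TCL1 replicate 1. There Eμ-TCL1 replicates 3 and 4 were at 0.7 and 0.6, within the Eμ-TCL1;p53R172H/+ range of 0.0 to 0.9, so the genotypes overlapped. In ibrutinib the calcium-independent phospholipase Pnpla8 was at 69.7, 92.8 and 77.8 in Eμ-TCL1 and at 44.0 to 59.6 in Eμ-TCL1;p53R172H/+ libraries (adjusted p = 0.313). Ptges3, which acts as a co-chaperone and as a prostaglandin E synthase, was at 43.2 to 65.9 in Eμ-TCL1 and at 72.0 to 103.6 in Eμ-TCL1;p53R172H/+ libraries (adjusted p = 0.327). For the interaction the lowest p belonged to Acsl5, Gpr34 and Lclat1 (adjusted p = 1 for each).

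Of the other cytosolic phospholipases, Pla2g4c was at 3.6, 1.2 and 2.6 in Eμ-TCL1 and at 0.7, 0.3, 1.1, 1.7 and 0.9 in Eμ-TCL1;p53R172H/+ DMSO libraries. Its log2 difference was -0.81 ± 0.33 (limma, adjusted p = 0.592), it counts among the 5 negative differences above, and the genotypes overlapped. The highest value was again that of Eμ-TCL1 DMSO replicate 2, and in ibrutinib the highest, 2.9, was that of Eμ-TCL1 replicate 1, the other library rich in Lyz2.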

How the data were processed

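RNA from cultured splenic cells was sequenced by the authors in 15 samples. The deposited signal values are the authors' normalized counts (CPM of an effective library size), in 1 table per treatment, rounded to 0.1. Per the study's methods and the submitters' processing notes, TopHat2 2.0.12, SAMtools 0.1.19, HTSeq and edgeR were used with GRCm38 and GENCODE M2, and genes under 0.5 CPM were removed by the authors. Whole reads could not be recovered from values rounded in this way, so depth is unknown and no count test or counting error is given. Groups, treatments and replicate numbers were taken from the labels.

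All genes of a table were compared between genotypes by limma's moderated linear model with a mean-variance trend (limma 3.58.1, R 4.3.3), fitted to log2(value + 1). P-values were adjusted over all genes by Benjamini-Hochberg and called under 0.05. The interaction used the 15869 genes in both tables. The fits were tested on simulated data with unrelated libraries, a capped spread between libraries and large planted differences. Genes with a spread as wide as that of Pla2g7 or Pla2g4a were not represented there, so that test does not bear on them. The names given are the 9 members, the 3 genes of the pathway lists with the lowest p in each fit, and the 3 genes most like each member with a mean of at least 1. Pla2g3, Pla2g4c, Lyz2 and markers are named beside them. Members and lists were chosen with earlier results of these data known. Alternatives were pseudocounts of 0.1 and 5, a mean of at least 5, quantile normalization, the column sum, sample quality weights, a replicate block, and libraries left out. Figures were drawn with matplotlib 3.10.9.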

Additional observations from a re-analysis of the deposited data

Results flagged for a closer look

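Pla2g4a in Eμ-TCL1;p53R172H/+ DMSO replicate 3 was at 1.3 normalized CPM, far from the other 4 libraries of its group at 0.1 to 0.3 (Dixon's ratio 0.83 against a critical value of 0.71). Lyz2 was also highest in this library among the 5, at 116.1. Of the groups of 4 or 5 libraries, 17 were tested in this way, and chance flags about 1 in 20.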

How the results depend on the processing

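No member passed the threshold in any fit run, with any library left out or under any other setting. Of all genes, 2 passed in DMSO, but 6 with a pseudocount of 5, 803 with sample quality weights, 1 without the 3 Eμ-TCL1;p53R172H/+ libraries with few B-cell and many T-cell transcripts (DMSO replicates 1 and 2, ibrutinib replicate 1), and 0 with the replicate block (970 at an unadjusted p under 0.05). In ibrutinib 0 passed (limma, 1973 at an unadjusted p under 0.05), but 2 after scaling to the column sum and 28 with sample quality weights. The cause was not tested. With 1 library left out, 0 to 61 genes passed in DMSO (61 with Eμ-TCL1 replicate 2 left out, 0 with Eμ-TCL1 replicate 3, where 1741 had an unadjusted p under 0.05, and 5 with replicate 4 of Eμ-TCL1;p53R172H/+) and 0 to 24 in ibrutinib (24 with Eμ-TCL1 replicate 1 left out and 5 with replicate 5 of Eμ-TCL1;p53R172H/+). Members without overlap numbered 0 to 1 in DMSO and 1 to 2 in ibrutinib with 1 library left out, and 1 in DMSO without those 3 libraries. The shares of all genes without overlap in these fits are not given, so these counts cannot be set against them.

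Same-numbered samples of the 2 genotypes had correlations of their deviations of 0.17, 0.25 and 0.05 for replicates 2, 3 and 4 in DMSO. Each was the highest that its Eμ-TCL1 library had with an Eμ-TCL1;p53R172H/+ library, by a small margin. In ibrutinib they were -0.05, -0.16 and -0.17 for replicates 1, 3 and 4. Whether the numbers pair the genotypes is not given by the labels and cannot be settled by these values. Across treatments within a genotype the correlations of same-numbered samples were 0.71 to 0.84 for 5 numbers and -0.10 for the other. The replicate block joins equal numbers across the genotypes as well as the treatments, so it does not model pairs within a genotype. With it the log2 difference of Pla2g16 in ibrutinib turned to 0.11, and no member passed. Of the member differences, 34 of 248 changed sign with 1 library left out and 14 of 200 under other settings. In DMSO, quantile normalization gave 0.22 for Pla2g12a, 0.0081 for Pla2g6 and 0.15 for Pla2g4f. Sample quality weights gave 0.29 for Pla2g4f and 0.090 for Pla2g4a. Without those 3 T-cell-rich libraries Pla2g12a was at 0.29 and Pla2g6 at 0.34. In ibrutinib, quantile normalization gave 0.11 for Pla2g16, and sample quality weights 0.69 for Pla2g7 and 0.47 for Pla2g4a. The interaction was -0.15 for Pla2g4f with sample quality weights, 0.11 for Pla2g15 without the 3 T-cell-rich libraries, and -0.065 for Pla2g4f without both libraries richest in Lyz2, a setting chosen after seeing the data.

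With 1 library left out, the differences that changed sign ranged in DMSO from -0.35 to 0.17 for Pla2g12a, -2.58 to 0.071 for Pla2g4a, -0.26 to 0.21 for Pla2g4f and -0.53 to 0.35 for Pla2g6. In ibrutinib they ranged from -0.43 to 0.22 for Pla2g16, -0.53 to 1.24 for Pla2g2d, -1.71 to 0.36 for Pla2g4a, -0.063 to 0.15 for Pla2g4f and -1.79 to 0.37 for Pla2g7. The interaction ranged from -0.39 to 0.13 for Pla2g12a, -0.82 to 0.43 for Pla2g15, -0.036 to 0.77 for Pla2g16, -1.29 to 0.48 for Pla2g2d, -1.03 to 2.003 for Pla2g4a, -0.17 to 0.30 for Pla2g4f and -0.77 to 2.12 for Pla2g7. A mean of at least 5 left 6 members in DMSO, 5 in ibrutinib and 6 for the interaction. Values near 0.1 are limited by rounding.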
